A study of Mus musculus with 29 samples.

Results

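The 10 genes described here encode ion channel subunits of arterial smooth muscle and were chosen by name, as the rows of the deposited tables whose gene symbol is Kcnma1, Kcnmb1, Cacna1c, Cacna1h, Kcna5, Kcnj8, Abcc9, Trpc1, Trpc6 or Itpr1. They are 10 of 51456 gene symbols, and each had a value in all 29 libraries. RNA was sequenced from the aortic arch of male C57BL/6 mice with a labelled age of 14 weeks, taken from satellite animals of a safety study of sclerostin antibody (Scl-Ab). The vehicle group (n = 9) comprised ApoE KO mice whose subcutaneous pump held 100 µL of angiotensin II (AngII) at 15.27 mg/mL, released at 0.11 µL/hr, and who were injected with vehicle, and the Scl-Ab group (n = 10) comprised ApoE KO mice with that AngII pump and weekly Scl-Ab at 10 mg/kg for 4 weeks. The WT group (n = 10 libraries) received vehicle in the pump and in the injections, and since the protocol names 9 WT mice, 2 of these libraries may share an animal. All groups ate chow. The ApoE deletion and AngII came together in both treated groups, so against WT their effects cannot be told apart, while Scl-Ab against vehicle compares groups that share both. Some ApoE KO mice died early, mainly of aortic rupture, and the arches were collected at scheduled necropsy.

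Tone in an artery is set by the calcium concentration inside its smooth muscle cells. Depolarization opens L-type calcium channels, and calcium is also released from the sarcoplasmic reticulum through inositol trisphosphate (IP3) receptors when agonists such as AngII activate phospholipase C. Potassium channels oppose this by hyperpolarizing the membrane: the large-conductance calcium-activated (BK) channel answers calcium sparks, the ATP-sensitive (KATP) channel answers metabolic state, and voltage-gated Kv channels answer depolarization. TRPC channels are non-selective cation channels linked to receptor signalling and stretch.

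Each of 18 contractile genes had a group mean of at least 1 in all 3 groups. The same held for every gene of the endothelial, fibroblast, macrophage, fat, heart and red cell lists, so it does not single out smooth muscle. The summed contractile value was 26602.6 to 30847.2 in WT (median 27970.1), 7494.9 to 23323.9 in vehicle (median 16118.7) and 8277.1 to 19425.1 in Scl-Ab (median 14017.9), so no library of either ApoE KO group reached the WT range. The macrophage markers, 8 of 8 called higher in vehicle against WT, summed to 99.84 to 337.1 in WT, 955.2 to 2983.7 in vehicle and 770.9 to 1833.2 in Scl-Ab. Fat markers summed to 262.7 to 1154.9, 372.8 to 5208.7 and 450.7 to 3496.4 in the same order, with 1 of 8 called higher in vehicle against WT. In Scl-Ab against WT, 3 of the 8 were called higher and 1 lower. Heart muscle markers summed to 37.18 to 431.6, 41.4 to 430.3 and 66.23 to 945.6, with 1 of 8 called lower in vehicle and 6 of 8 higher in Scl-Ab, both against WT. Endothelial markers summed to 135.7 to 247.8, 222.6 to 327.1 and 122 to 298.8, with 7 of 10 called higher in vehicle against WT and 4 of 10 lower in Scl-Ab against vehicle. Pericyte markers summed to 854.6 to 1200.4, 591.1 to 909 and 487.8 to 730.1, with 4 of 7 called lower and 1 higher in vehicle against WT. Fibroblast markers summed to 1382.2 to 3185.4, 1904.5 to 5085.7 and 1368.7 to 5944.1 (3 of 8 higher and 1 lower in vehicle against WT), and red cell genes to 454.1 to 1083.1, 198.5 to 2044.8 and 110.6 to 777.1 (4 of 5 lower in Scl-Ab against WT). No marker of these 8 lists was at 0 throughout a group. Apoe itself read 145.9 to 363.2 in WT, 3.319 to 9.232 in vehicle and 4.64 to 12.51 in Scl-Ab. Values are FPKM-like, that is, per gene length and per library scale. A value of 1 in a 2 kb gene corresponded to about 31.8 to 43.6 fragments, estimated from the spacing of low values.

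The upstream sequence of 4 of these genes is shown because 2 of them, Kcnj8 and Abcc9, are neighbours that encode the pore and the regulatory subunit of one channel, Kcnmb1 followed the contractile genes most closely, and Trpc6 held the one CArG box (the serum response factor element of many contractile genes) found among the members. Each line gives bases before the transcription start in RefSeq (GRCm38.p6), 5′ to 3′ on the gene's strand. A CArG box or a GC box (GGGCGG, searched on both strands) is in capitals. Bases from the first GENCODE exon of the gene onward were left out, so the Abcc9 line (209 bases) stops short of the RefSeq start. They cover chr11:33962763-33963012 (plus strand) for Kcnmb1, chr6:142571615-142571864 (minus) for Kcnj8, chr6:142702316-142702524 (minus) for Abcc9 and chr9:8543892-8544141 (plus) for Trpc6.
Kcnmb1: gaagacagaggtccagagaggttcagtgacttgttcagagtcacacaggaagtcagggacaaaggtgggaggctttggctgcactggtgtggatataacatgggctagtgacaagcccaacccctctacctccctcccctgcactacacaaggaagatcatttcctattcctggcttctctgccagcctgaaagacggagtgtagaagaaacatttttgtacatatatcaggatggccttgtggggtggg
Kcnj8: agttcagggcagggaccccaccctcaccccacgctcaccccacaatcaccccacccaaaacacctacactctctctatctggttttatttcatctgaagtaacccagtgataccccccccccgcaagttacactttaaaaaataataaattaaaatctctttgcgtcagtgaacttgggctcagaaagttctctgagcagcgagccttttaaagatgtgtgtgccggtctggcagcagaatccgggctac
Abcc9: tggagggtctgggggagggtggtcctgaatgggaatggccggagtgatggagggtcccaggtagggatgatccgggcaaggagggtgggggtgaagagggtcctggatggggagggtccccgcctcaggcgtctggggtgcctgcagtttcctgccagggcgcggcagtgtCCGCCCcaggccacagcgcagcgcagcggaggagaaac
Trpc6: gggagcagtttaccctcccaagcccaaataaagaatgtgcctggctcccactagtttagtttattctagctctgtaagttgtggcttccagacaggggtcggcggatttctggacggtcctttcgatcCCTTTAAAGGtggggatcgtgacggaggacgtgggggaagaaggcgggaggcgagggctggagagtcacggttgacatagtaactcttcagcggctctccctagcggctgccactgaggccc
The Trpc6 box lies 122 bases before the start, and Abcc9 has 1 GC box. Windows not shown also held GC boxes, in Kcnma1 (3), Trpc1 (3) and Cacna1c (6), so 4 members had at least 1. RefSeq windows were matched for 8 of the 10 members, and 1.47% of all 32851 windows held a CArG box and 32.7% a GC box. Kcnmb1 had neither motif in its window. The Kcnj8 and Abcc9 gene bodies, both on the minus strand of chromosome 6, are 16247 bases apart.

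Within WT, the order of levels per gene length ran from Kcnmb1 (96.7 ± 8.32, SD, n = 10 for each gene) through Abcc9 (58.6 ± 5.24), Kcnj8 (32.5 ± 7.33), Itpr1 (31.0 ± 1.91), Cacna1c (8.27 ± 1.65), Kcnma1 (8.18 ± 1.67), Trpc1 (4.07 ± 0.353), Kcna5 (0.822 ± 0.286) and Cacna1h (0.797 ± 0.1804) to Trpc6 (0.0653 ± 0.0400). Among neighbours in this order, 3 pairs overlapped between libraries, namely Kcnj8 with Itpr1, Cacna1c with Kcnma1, and Kcna5 with Cacna1h, while the other neighbours were ordered alike in 10 of 10 libraries. In vehicle, Itpr1 stood above Kcnj8 in 7 of 9 libraries, and in Scl-Ab Kcnj8 stood above Itpr1 in 6 of 10. The accessory BK subunit thus had a higher value per length than the pore in every WT library, which compares RNA only.

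**Figure D1:**
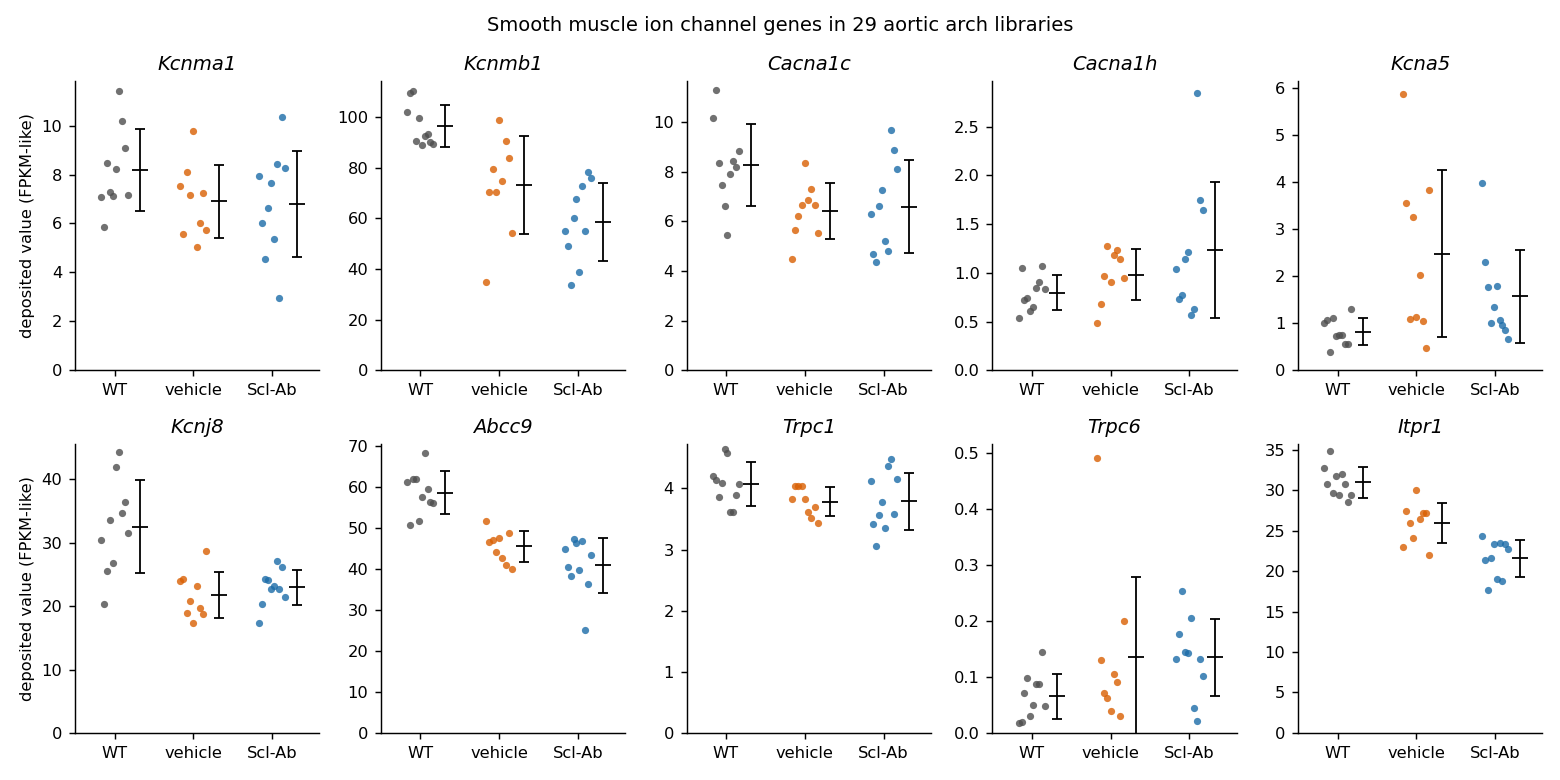
Deposited FPKM-like value (y axis, from 0) of each of the 10 channel genes in each library (points) of the WT (n = 10), vehicle (n = 9) and Scl-Ab (n = 10) groups (x axis), with the group mean and SD as a dash and bar; the lower end of the vehicle bar for Trpc6 is below 0 and not drawn. For Itpr1, Abcc9 and Kcnmb1, no Scl-Ab point reaches the lowest WT point.

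In vehicle against WT, 5 of the 9 tested members fell (Kcnj8, Kcnmb1, Abcc9, Cacna1c and Itpr1) and 1 rose (Kcna5) at an adjusted p under 0.05 in limma. Of all 13510 genes tested, 53.7% were called in this comparison, 31.0% lower and 22.7% higher, so the members' 6 of 9 is read against that share. The median member changed by -0.25 on the log2(value + 1) scale, against -0.04 for all tested genes and -0.74 for the 18 contractile genes. All fold changes given here are of value + 1, which draws those of genes with low values towards no change. In Scl-Ab against vehicle, 1 of 9 was called (Itpr1, lower), where 7.44% of all genes were, 4.80% lower and 2.64% higher. In Scl-Ab against WT, 5 of 9 fell and none rose, where 50.4% of all genes were called, 30.5% lower and 19.8% higher. The Scl-Ab and WT libraries did not overlap at all for 3 of the 10 members (Kcnmb1, Abcc9 and Itpr1, each lower), a separation that 12.3% of tested genes showed and 6.54% showed in that direction. Such a separation was seen for 0 of 10 members in vehicle against WT, where 16.8% of tested genes showed it, and for 0 of 10 in Scl-Ab against vehicle, where 0.141% did. Both comparisons with WT use the same WT libraries. In bulk tissue, fewer smooth muscle cells and less RNA per cell cannot be told apart for any of these falls, and what part the macrophage, fat, heart, endothelial, pericyte, fibroblast and red cell markers had in them was not tested.

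**Figure D2:**
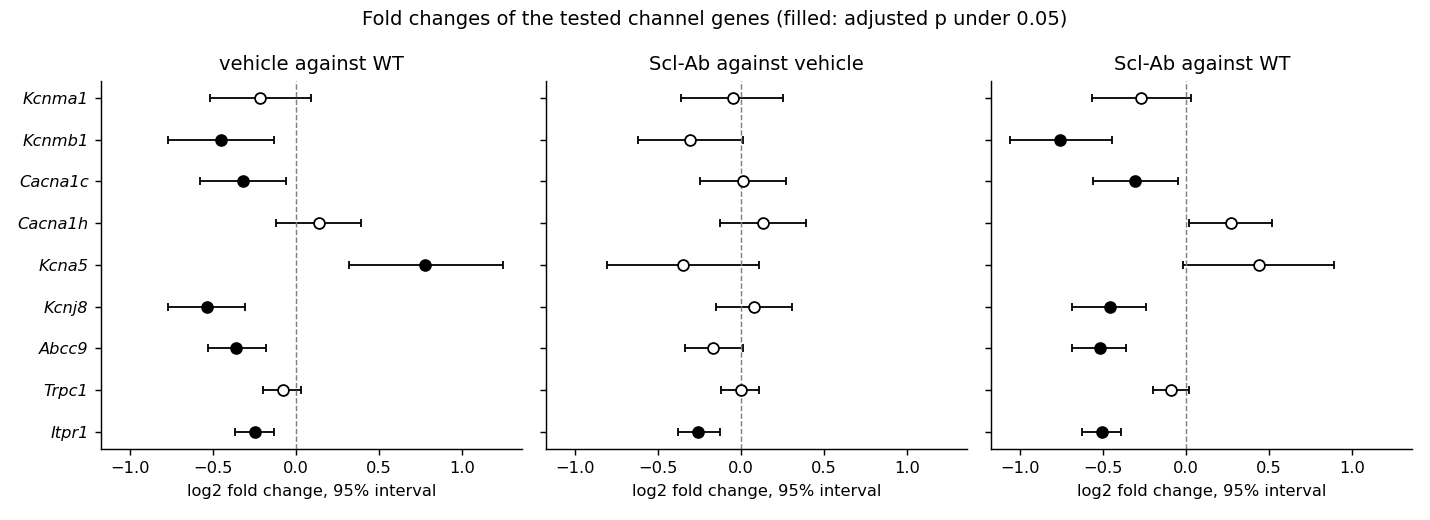
Log2 fold change with its 95% interval (x axis) for the 9 tested channel genes (y axis) in vehicle against WT, Scl-Ab against vehicle and Scl-Ab against WT; filled points had an adjusted p under 0.05 in limma. Kcna5 is the one filled point above 0, and Itpr1 is the one filled in all 3 panels.

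Of the calcium entry channels, Cacna1c, the pore of the L-type channel Cav1.2, was lower in both ApoE KO groups. It read 5.46, 8.26 and 11.3 (lowest, median, highest) in WT, 4.49, 6.67 and 8.34 in vehicle and 4.37, 6.45 and 9.68 in Scl-Ab. The groups overlapped widely: 1 vehicle library and 4 Scl-Ab libraries lay below the lowest WT library. The log2 fold change was -0.32 ± 0.13 (SE) in vehicle against WT (limma adjusted p = 0.0374) and -0.31 ± 0.12 in Scl-Ab against WT (limma adjusted p = 0.0399). Both calls depended on single libraries and on scaling, and the vehicle call also on the clock gene index described with Itpr1. With that index the vehicle value was -0.33 (limma adjusted p = 0.0949). The vehicle call ended without any one of WT replicates 20, 21, 27 and 29 or vehicle replicates 1, 2, 3 and 9 (limma adjusted p from 0.0509 to 0.0849). The Scl-Ab call ended without any one of WT replicates 20, 21, 22, 27, 28 and 29 or Scl-Ab replicates 10, 11, 12, 15 and 16 (limma adjusted p from 0.0506 to 0.0855), and TMM scaling ended both (limma adjusted p = 0.0722 and 0.103). In Scl-Ab against vehicle its 95% interval ran from -0.25 to 0.27.

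Cacna1h, the T-type channel pore Cav3.2, read 0.541, 0.786 and 1.08 in WT, 0.487, 0.964 and 1.28 in vehicle and 0.566, 1.09 and 2.85 in Scl-Ab. It did not pass the test against WT in vehicle (0.14 ± 0.13, limma adjusted p = 0.375) or Scl-Ab (0.27 ± 0.12, limma adjusted p = 0.0691). The Scl-Ab value passed with TMM scaling (0.30, limma adjusted p = 0.0403), with the contractile index in the fit (0.60, limma adjusted p = 0.0176) and with the fat index (0.33, limma adjusted p = 0.0388). It also passed without any one of Scl-Ab replicates 11, 15 and 16 (limma adjusted p from 0.0311 to 0.0476), and stood at 0.05 without replicate 12. With GC content and length trends removed it passed in both groups (0.27 and 0.30, limma adjusted p = 0.0353 and 0.0188). The 2 calcium channel pores differed from each other in their change. The log2 ratio of Cacna1h to Cacna1c (values + 1) was -2.35 ± 0.24 (SD) in WT, -1.90 ± 0.16 in vehicle and -1.78 ± 0.15 in Scl-Ab. The ratio was higher than in WT by 0.45 in vehicle (exact permutation test, two-sided, adjusted p = 0.00208 over 12 ratio tests) and by 0.57 in Scl-Ab (permutation test, adjusted p = 0.00024, the raw p of 2e-05 being the smallest that 100000 resamples can give). It held in each test without 1 library, at 0.40 to 0.50 and 0.52 to 0.62. Scl-Ab and vehicle differed by 0.12 (exact permutation adjusted p = 0.187). Within groups the pair moved together, with r = 0.77 and rho = 0.58 over 29 group-centred libraries (permutation adjusted p = 7.0e-05 and 0.0057 over 21 relations, the former at the smallest raw p that the resamples can give), r = 0.40 in WT, 0.71 in vehicle and 0.93 in Scl-Ab, and r = 0.76 without the 2 most distant libraries.

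Of the BK channel members, the accessory subunit was called against WT and the pore was not, which does not by itself separate them. Their ratio is given below. Kcnmb1, the β1 subunit that raises the calcium sensitivity of BK channels in smooth muscle, read 89.0, 92.9 and 110.5 in WT, 34.9, 74.9 and 99.0 in vehicle and 33.5, 57.7 and 78.4 in Scl-Ab. Below the lowest WT library lay 7 vehicle libraries and all 10 Scl-Ab libraries. The log2 fold change was -0.45 ± 0.15 in vehicle (0.733-fold, limma adjusted p = 0.0162) and -0.76 ± 0.15 in Scl-Ab (0.592-fold, limma adjusted p = 0.000136), both against WT. Scl-Ab against vehicle gave -0.31 with a 95% interval from -0.62 to 0.01 (limma adjusted p = 0.216), and -0.43 (limma adjusted p = 0.0402) without vehicle replicate 1, the library with the lowest contractile sum. Without that library the change in vehicle against WT was -0.32, and with the clock gene index described with Itpr1 it was -0.47 (limma adjusted p = 0.0513).

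Kcnma1, the BK pore, read 5.84, 7.75 and 11.4 in WT, 5.06, 7.17 and 9.77 in vehicle and 2.95, 7.14 and 10.4 in Scl-Ab, so its groups overlapped. It was not called in the 3 comparisons, at -0.22 ± 0.15 in vehicle (limma adjusted p = 0.224) and -0.27 ± 0.14 in Scl-Ab (limma adjusted p = 0.121) against WT. Removal of GC content and length trends made both pass (-0.32 and -0.33, limma adjusted p = 0.0376 and 0.0299), as did leaving out Scl-Ab replicate 18 for the latter (-0.34, limma adjusted p = 0.0474). The log2 ratio of Kcnmb1 to Kcnma1 was 3.43 ± 0.32 (SD) in WT, 3.20 ± 0.48 in vehicle and 2.94 ± 0.35 in Scl-Ab. Scl-Ab was lower than WT by 0.49 (difference -0.49, permutation adjusted p = 0.023), and the call ended at a pseudocount of 0.1 (-0.45, adjusted p = 0.0642). The vehicle ratio differed from WT by -0.23 (exact permutation adjusted p = 0.296). Across group-centred libraries the subunits were only loosely related (r = 0.36, rho = 0.27, permutation adjusted p = 0.151 and 0.285), from r = -0.42 in WT to 0.66 in Scl-Ab, and r was again 0.36 without the 2 most distant libraries.

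Kcna5, the Kv1.5 pore, was the member that rose. It read 0.394, 0.751 and 1.29 in WT, 0.482, 2.03 and 5.88 in vehicle and 0.655, 1.20 and 3.99 in Scl-Ab. Above the highest WT library lay 5 vehicle and 5 Scl-Ab libraries, and the remainder lay inside the WT range. Vehicle libraries varied most (coefficient of variation 71.4%, against 34.8% in WT). The log2 fold change in vehicle against WT was 0.78 ± 0.23 (1.72-fold, limma adjusted p = 0.00466), and it understates the ratio of the means because 1 was added to low values: at a pseudocount of 0.1 it was 1.21. Scl-Ab against WT gave 0.44 ± 0.22 (limma adjusted p = 0.0997, and 0.0278 with those 2 groups fitted alone). That value was 0.11 with the fat index in the fit (limma adjusted p = 0.644) and 0.10 with the heart index (limma adjusted p = 0.748). Scl-Ab against vehicle gave -0.35 ± 0.23 (limma adjusted p = 0.355, and -0.69 with 0.0406 when the heart marker index was in the fit). The rise in vehicle did not pass with the clock gene index (0.64, limma adjusted p = 0.065). Fat markers moved with Kcna5 inside the groups: r = 0.64 and rho = 0.56 over 29 group-centred libraries (permutation adjusted p = 0.00139 and 0.00737), 0.94 in vehicle, 0.71 in Scl-Ab and -0.23 in WT, and r = 0.76 without the 2 most distant libraries. With the fat marker index in the fit, the rise in vehicle was 0.58 (limma adjusted p = 0.00894). Vehicle replicate 1 had both the highest Kcna5 value and the highest fat marker sum (5208.7), and without it and Scl-Ab replicate 17 the rise was 0.64 (limma adjusted p = 0.0127).

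The KATP channel fell in both subunits. Kcnj8 encodes the Kir6.1 pore and Abcc9 the SUR2 sulphonylurea receptor that gates it. Kcnj8 read 20.3, 32.6 and 44.3 in WT, 17.3, 20.8 and 28.7 in vehicle and 17.3, 22.9 and 27.1 in Scl-Ab. Of the WT libraries, 7 lay above every vehicle library and 7 above every Scl-Ab library. The log2 fold change was -0.54 ± 0.11 in vehicle (0.686-fold, limma adjusted p = 0.000189) and -0.46 ± 0.11 in Scl-Ab (0.725-fold, limma adjusted p = 0.000803). Abcc9 read 50.9, 58.6 and 68.4 in WT, 40.1, 46.7 and 51.7 in vehicle and 25.2, 41.9 and 47.5 in Scl-Ab. Below the lowest WT value lay 8 vehicle libraries and all 10 Scl-Ab libraries. The log2 fold change was -0.36 ± 0.08 in vehicle (0.781-fold, limma adjusted p = 0.000794) and -0.52 ± 0.08 in Scl-Ab (0.696-fold, limma adjusted p = 5.31e-06). With the clock gene index described with Itpr1, the vehicle values against WT were -0.35 for Kcnj8 and -0.41 for Abcc9 (limma adjusted p = 0.0255 and 0.00258).

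Scl-Ab and vehicle did not differ in either subunit beyond the test, with 95% intervals of -0.15 to 0.31 for Kcnj8 and -0.34 to 0.01 for Abcc9. The log2 ratio of Abcc9 to Kcnj8 was 0.86 ± 0.27 (SD) in WT, 1.04 ± 0.29 in vehicle and 0.80 ± 0.33 in Scl-Ab, with adjusted p of 0.187 to 0.729 in the 3 comparisons (exact or 100000-resample permutation tests). The genes are neighbours, but a relation of their values across group-centred libraries did not pass the test (r = 0.11, rho = 0.06, permutation adjusted p = 0.577 and 0.783). Without the 2 most distant libraries r was -0.10. By group r was 0.62 in WT, -0.35 in vehicle and -0.06 in Scl-Ab, so the pooled r joins groups of unlike sign.

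**Figure D3:**
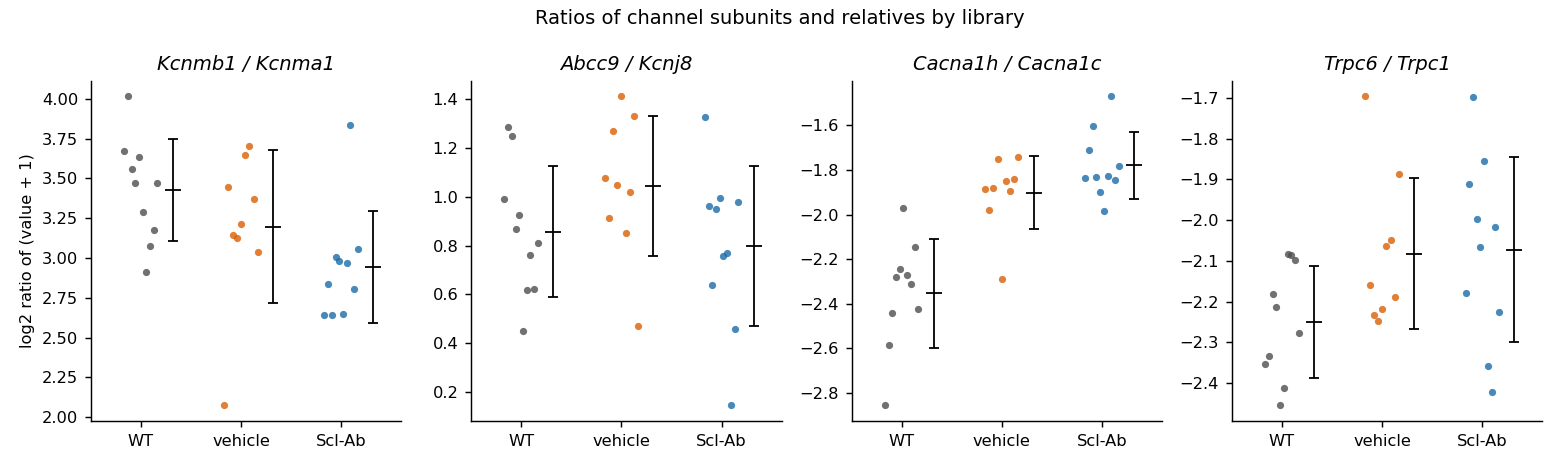
Log2 ratio of (value + 1) for 4 pairs of channel genes (y axis; panels have different ranges) in each library (points) of the 3 groups (x axis), with mean and SD as a dash and bar. The ratio of Cacna1h to Cacna1c averages -2.35 in WT, -1.90 in vehicle and -1.78 in Scl-Ab.

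The receptor-linked cation channels were not called. Trpc1 read 3.61, 4.09 and 4.65 in WT, 3.44, 3.83 and 4.05 in vehicle and 3.06, 3.68 and 4.48 in Scl-Ab. Its log2 fold changes against WT were -0.08 ± 0.05 in vehicle (limma adjusted p = 0.207) and -0.09 ± 0.05 in Scl-Ab (limma adjusted p = 0.179), and both passed once GC content and length trends were removed (-0.19 and -0.14, limma adjusted p = 0.00692 and 0.0354). Trpc6 did not pass the filter of a value of at least 1 in 9 libraries and was not tested. Its values, 0.0177 to 0.144 in WT, 0.0302 to 0.491 in vehicle and 0.0215 to 0.254 in Scl-Ab, correspond to about 1 to 32 fragments a library. The ratio of Trpc6 to Trpc1 was not called in the 3 comparisons (exact or 100000-resample permutation tests, adjusted p of 0.11 to 0.917). In Scl-Ab against WT it was 0.18 (permutation adjusted p = 0.12), 0.22 without Scl-Ab replicate 17 (permutation adjusted p = 0.0442) and 0.59 at a pseudocount of 0.1 (permutation adjusted p = 0.0742). The 0.18 includes the -0.09 of Trpc1 itself. Adding 1 to values as low as those of Trpc6 draws their part in the ratio towards no change.

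Itpr1, the type 1 IP3 receptor that releases stored calcium, stepped down from WT to vehicle and from vehicle to Scl-Ab. It read 28.5, 30.7 and 34.9 in WT, 22, 26.5 and 30.0 in vehicle and 17.7, 22.2 and 24.4 in Scl-Ab. Below the lowest WT library lay 8 vehicle libraries and all 10 Scl-Ab libraries, and 5 Scl-Ab libraries lay below the lowest vehicle library. The log2 fold change was -0.25 ± 0.06 in vehicle against WT (0.840-fold, limma adjusted p = 0.00091), -0.26 ± 0.06 in Scl-Ab against vehicle (0.838-fold, limma adjusted p = 0.013) and -0.51 ± 0.06 in Scl-Ab against WT (0.703-fold, limma adjusted p = 3.82e-08). The Scl-Ab call against vehicle held in 19 of 19 limma fits that left out 1 library (-0.28 to -0.23). It ended with libraries scaled to equal totals (-0.22, limma adjusted p = 0.144), with the 2 groups fitted alone (limma adjusted p = 0.0552) and in the Wilcoxon test (adjusted p = 0.0643). Circadian clock genes also differed between these groups (Dbp, Per3, Nr1d2, Tef and Hlf higher, 5 of a list of 8, and Arntl, Npas2, Clock and Nfil3 lower, in Scl-Ab). With a clock index in the fit the Itpr1 value was -0.16 (limma adjusted p = 0.807), and 3 genes of the whole table were called. Vehicle and WT also differed in clock genes: 7 of the same 8 were lower and 3 of the other 4 higher in vehicle. In that comparison Itpr1 was -0.33 with the clock index (limma adjusted p = 0.000492).

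Members differed in how closely they followed the contractile genes inside the groups. The contractile index was the mean log2 value of the 18 genes, which include Myh11, Acta2 and Cnn1. These 3, smooth muscle myosin, actin and calponin, fell to 0.415-, 0.534- and 0.647-fold in vehicle against WT (limma adjusted p = 3.69e-08, 0.000199 and 0.0113). Over 29 group-centred libraries Kcnmb1 had r = 0.96 and rho = 0.94 with the index, with r from 0.87 to 0.97 in the 3 groups and 0.93 without the 2 most distant libraries (permutation adjusted p = 7.0e-05 and 1.0e-04, from a raw p of 1.0e-05, the smallest that 100000 resamples can give). Itpr1 had r = 0.80 and rho = 0.74 (adjusted permutation p = 1.0e-04 and 2.1e-04), 0.71 to 0.89 within groups and 0.76 without those libraries. Cacna1c had r = 0.58 and rho = 0.59 (adjusted permutation p = 0.00459 and 0.0057), 0.40, 0.94 and 0.53 in WT, vehicle and Scl-Ab, and 0.43 without them. Kcna5 ran the other way, with r = -0.61 and rho = -0.57 (adjusted permutation p = 0.00677 and 0.00593), -0.35, -0.85 and -0.36 in the 3 groups, and -0.51 without them.

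The KATP genes did not pass the test with the index: r was 0.14 for Abcc9 and -0.27 for Kcnj8 (adjusted permutation p = 0.583 and 0.151). For Kcnj8 r was -0.65 in WT, -0.69 in vehicle and 0.11 in Scl-Ab. Kcnma1 had r = 0.50 with rho = 0.35 (adjusted permutation p = 0.0292 and 0.153), Cacna1h r = 0.39 and Trpc1 r = 0.29, neither passing. The index itself differed between the groups. With it as a covariate, Kcnj8 and Kcnmb1 were the members called in vehicle against WT. Of all tested genes, 5921 were then called, against 7255 without it. Kcnmb1 then read 0.39, opposite in sign to its fall of -0.45, Itpr1 0.00 and Kcna5 0.00, all on the log2 scale, and Abcc9 was -0.29, against -0.36 without the index, and missed the threshold (limma adjusted p = 0.0533). In Scl-Ab against WT, Itpr1 went from -0.51 to -0.19 (limma adjusted p = 0.0237). Fat markers ran opposite to Kcnmb1 (r = -0.78, rho = -0.82), Itpr1 (r = -0.61 for both measures) and Cacna1c (r = -0.59, rho = -0.58), with permutation adjusted p from 7.0e-05 to 0.0057, and r = -0.89, -0.67 and -0.59 without the 2 most distant libraries. With the fat index in the fit, Kcnmb1 went from -0.45 to -0.28 in vehicle and from -0.76 to -0.49 in Scl-Ab against WT (limma adjusted p = 0.0244 and 0.000391). Cacna1c went to -0.21 and -0.14, which ended both calls (limma adjusted p = 0.102 and 0.303). The heart index also ended the Cacna1c call in Scl-Ab against WT (-0.23, limma adjusted p = 0.207). Relations with the other marker lists were described and not tested. Over the group-centred libraries, the fibroblast markers had r = -0.76 with Cacna1c, -0.74 with Cacna1h, -0.65 with Kcnmb1 and 0.59 with Abcc9. Endothelial markers had r = -0.60 with Cacna1c and -0.59 with Kcnmb1, and macrophage markers -0.58 with Cacna1c. The pericyte markers had r = 0.55 with Kcnj8. Kcna5 had r = 0.51 with heart, 0.49 with fibroblast and 0.47 with endothelial markers. The other relations with these lists were weaker.

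**Figure D4:**
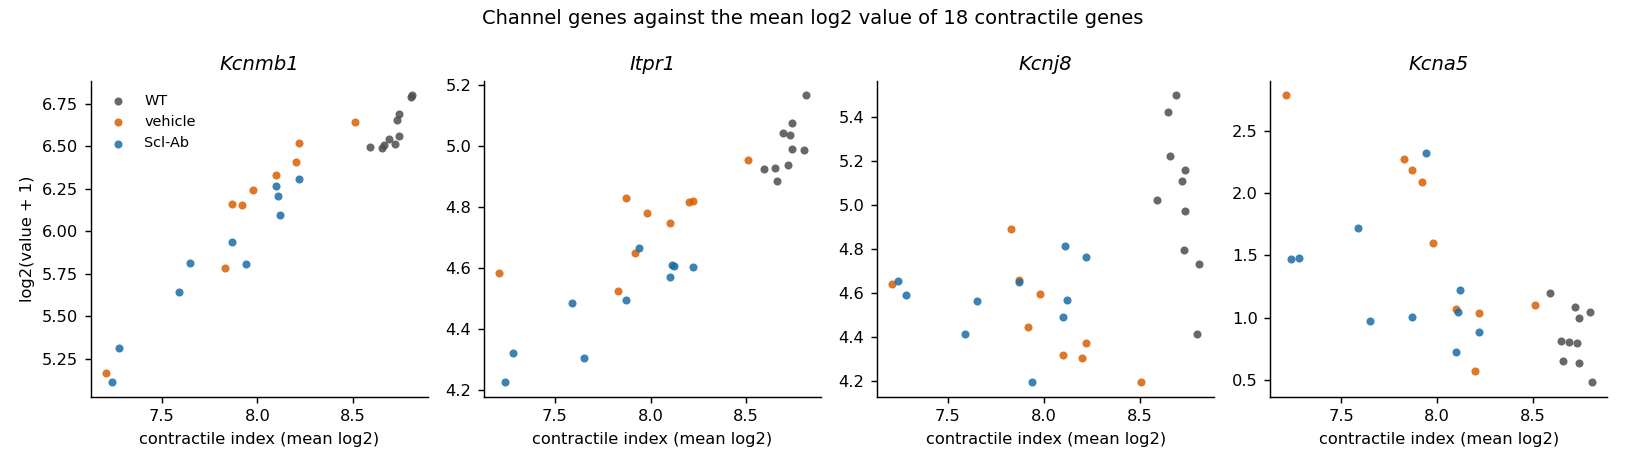
log2(value + 1) of Kcnmb1, Itpr1, Kcnj8 and Kcna5 (y axes) against the contractile index, the mean log2 value of 18 contractile genes (x axis), for each library of the 3 groups. Kcnmb1 rises with the index in every group, while the Kcnj8 points of vehicle and Scl-Ab lie apart from most WT points with no common slope.

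The other genes of these channel systems were taken from a list of 74 (pores, accessory subunits, calcium pumps and store proteins), of which 50 were tested. In vehicle against WT, 19 fell and 13 rose, with a median log2 fold change of -0.17, where 31.0% of all tested genes fell and 22.7% rose. In Scl-Ab against vehicle, 3 fell and 2 rose, with a median of 0.04, where 7.44% of all genes were called. In Scl-Ab against WT 21 fell and 17 rose, where 50.4% were called. By role, in vehicle against WT, calcium channel subunits, listed with the small GTPases Rem1 and Rrad that act on them, gave 5 lower and none higher of 9 tested, Rrad being 1 of the 5 (0.433-fold, limma adjusted p = 0.00205). Potassium channel genes gave 5 lower and 3 higher of 11, TRP and other cation channels 2 lower and 5 higher of 11, and calcium store genes 7 lower and 5 higher of 19.

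Partners of the L-type channel showed the fall most clearly in Cacna2d3, an auxiliary α2δ subunit, at 1.01 in vehicle against 2.73 in WT (0.541-fold, limma adjusted p = 5.34e-11). Cacnb2, a β subunit that brings the pore to the membrane, was 0.736-fold (limma adjusted p = 0.00184). Cacnb3 at 0.785-fold and Cacna2d1 at 0.893-fold did not pass (limma adjusted p = 0.0528 and 0.117). Among potassium channels, the Kv accessory subunits split: Kcnab1 fell from 75.7 to 35.2 (0.472-fold, limma adjusted p = 1.53e-08) and Kcnab2 rose from 0.418 to 1.84 (1.99-fold, limma adjusted p = 8e-09). Kcnj11, the other KATP pore Kir6.2, was 1.65 in WT and 0.647 in vehicle (0.616-fold, limma adjusted p = 1.51e-05), well below Kcnj8 in level. Since the folds are of value + 1, those of Cacna2d3, Kcnab2 and Kcnj11 understate the ratio of the means printed beside them. Kcnmb4, another BK β subunit, averaged 0.0542 in WT and was not tested.

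The IP3 receptor family split in direction. Itpr2 and Itpr3, the type 2 and type 3 receptors, rose 1.45-fold and 1.46-fold in vehicle against WT (limma adjusted p = 0.00418 and 1.84e-05) while Itpr1 fell. Their levels were lower than that of Itpr1 throughout, at 3.22 and 2.51 in vehicle against 25.9. Atp2a2, the SERCA2 pump that refills the store, fell to 0.674-fold and Ryr2, a ryanodine receptor also on the heart marker list, to 0.707-fold (limma adjusted p = 4.2e-05 and 0.0046). Pln, the SERCA2 inhibitor phospholamban, did not pass (0.598-fold, limma adjusted p = 0.211), and in Scl-Ab it averaged 22.7 against 5.75 in vehicle (limma adjusted p = 0.0582), in the group with the highest heart marker sums. P2rx4, an ATP-gated cation channel, rose 1.73-fold, and Orai3, a store-operated channel subunit, fell to 0.731-fold (limma adjusted p = 5.28e-10 and 1.54e-08).

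Between Scl-Ab and vehicle, where 7.44% of all genes were called, the related genes called were Kcnab1 (0.671-fold, limma adjusted p = 0.00618), Asph (0.711-fold, 0.00677 by the same test), Rem1 (1.58-fold, 0.0132), Trpv4 (0.682-fold, 0.0206) and Atp2b1 (1.19-fold, 0.0364). No related gene was called with the clock index in the fit, and 3 were with the 2 groups fitted alone or in the Wilcoxon test. Asph includes the store protein junctin, Rem1 is a small GTPase that restrains calcium channels, Trpv4 is a calcium-permeable TRP channel and Atp2b1 is a plasma membrane calcium pump. In Scl-Ab against WT, those with the smallest p included Kcnab1 (0.317-fold), Cacna2d3 (0.508-fold) and Orai3 (0.752-fold), which fell, and P2rx4 (1.64-fold) and the mechanosensitive channel Piezo1 (1.79-fold), which rose (limma adjusted p from 3.43e-12 to 5.1e-08).

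**Figure D5:**
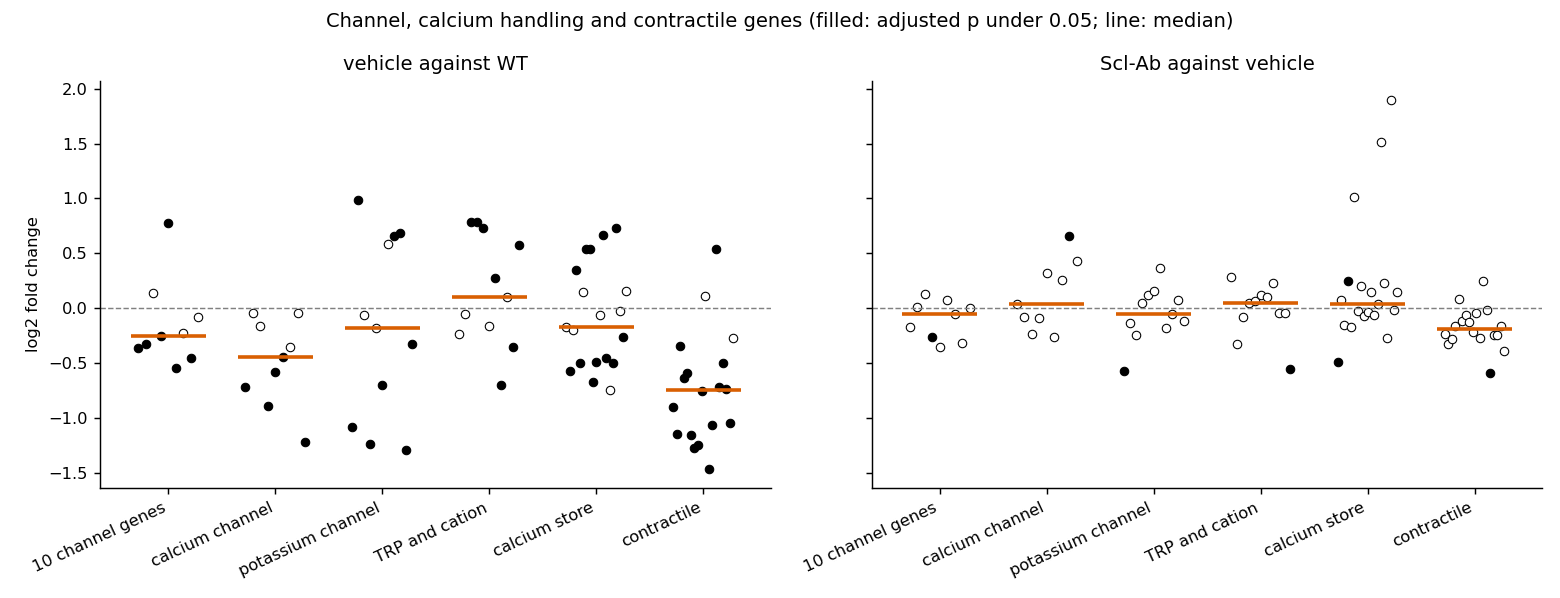
Log2 fold change (y axis) of each tested gene (points; filled, adjusted p under 0.05 in limma) in 6 lists (x axis) for vehicle against WT and Scl-Ab against vehicle, with the list median as a line. In vehicle against WT the medians are -0.25 for the channel members and -0.74 for the contractile genes, and in Scl-Ab against vehicle -0.05 and -0.18.

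The genes whose group-centred values were most like those of a member over 29 libraries were found by Pearson correlation across all tested genes, as a description. Kcnmb1 was closest to Npnt (0.97), Mmp17 (0.96) and Tspan2 (0.96), and Itpr1 to Mgat4a (0.91), Cald1 (0.88) and Msrb3 (0.87). Kcna5 was closest to Gdap10 (0.91), Atl2 (0.91) and Nampt (0.90), Abcc9 to Smc1a, Fam168b (both 0.90) and Atxn1l (0.89), and Kcnma1 to Polr2b (0.93), Pdcd10 (0.86) and Ust (0.84). Cacna1c was closest to Zfp281, Susd2 (both 0.85) and Kcnq5 (0.82), and Cacna1h to Kcnh2 (0.86), Sncg and Ctxn1 (both 0.82). Kcnj8 reached 0.75 with Cbs and 0.74 with Snn and Nr3c2, and Trpc1 0.71 with Ppil4, 0.70 with Larp4b and 0.69 with Pank2. The libraries share depth and tissue makeup, which such a likeness also reads.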

How the data were processed

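The deposited files hold 1 value per gene symbol and library, in a unit the authors call FPKQ in the file headers and do not spell out there. The values behave as FPKM, fragments per kilobase scaled within the library, as deposited by the authors: their 85th percentile was 6.99 to 7.30 in every library, while their sums ran from 496126 to 678907. The submitters' processing notes name GRCm38 and DESeq2 1.10.1 with no role, and which aligner and counter were used is not given in the sources used here. Upper-quantile scaling leaves composition in the values, which is why TMM scaling and equal totals were tried. For genes with 1 transcript, low values fell on steps of a common size in each library (76.0 to 78.6% of them to within 0.05 of a step), which gave the approximate fragment counts. The 10 members and all lists were chosen with earlier results of these data known, and they support nothing by themselves.

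Genes that reached 1 in 9 or more libraries (13510 of 51456) were fitted as log2(value + 1) with limma 3.58.1 (R 4.3.3; trend and robust) as 3 group means over 29 libraries, with Benjamini-Hochberg adjustment over all tested genes and a threshold of 0.05. The script was tested on simulated data first. Log2 ratios were compared by exact (9 against 10) or 100000-resample permutation tests, two-sided, adjusted over 12, in Python 3.11.15 with SciPy 1.17.1. Relations across libraries used values less the group mean, permuted within groups. The labels give a number to each library and do not say that each is a separate animal, so p-values measure the spread between these libraries. Within each group no 2 libraries held identical values. Other genes were named by rule: in each comparison the 6 called list genes with the smallest p, 12 direct partners, 3 contractile comparators and the 3 genes most like each member; all 5 called in Scl-Ab against vehicle are given. Some genes that the rule names are not reported here. Upstream windows are from RefSeq (GRCm38.p6), printed up to the first base that a GENCODE exon of the gene covers. Protein sequences were planned and not used here. Alternatives were the pseudocount, the filter, TMM scaling (trimmed mean of M-values, computed on the values) and equal totals, the 2 compared groups alone, a Wilcoxon test, contractile, fat and clock indices as covariates, and each library left out. Chosen after seeing the data were a heart marker covariate, removal of GC content and length trends, and leaving out vehicle replicate 1 and Scl-Ab replicate 17 together. The GC trend differed by group. The Spearman correlation of each gene's deviation from its mean with GC content was 0.04 to 0.22 in WT libraries. It was -0.34 to 0.24 in vehicle (7 libraries below 0) and -0.12 to 0.25 in Scl-Ab (6 below 0). Its cause was not tested.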

Additional observations from a re-analysis of the deposited data

Results flagged for a closer look

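In 4 of 30 sets of one gene in one group, a single library stood apart by Dixon's test at the 95% level, which chance alone does in about 1 set in 20. In Scl-Ab replicate 17, Abcc9 was lowest at 25.2 (next 36.4) and Cacna1h highest at 2.85 (next 1.75). The same library had the lowest Kcnma1 value, 2.95, and the highest Cacna1c value, 9.68, of its group. In Scl-Ab replicate 10, Kcna5 was highest at 3.99 (next 2.30). In vehicle replicate 1, Trpc6 was highest at 0.491 (next 0.2004), a level of few fragments.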

How the results depend on the processing

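No paired analysis was possible because the groups share no replicate numbers. Low values limit Trpc6, Cacna1h and Kcna5. Against WT, Kcnmb1, Kcnj8, Abcc9 and Itpr1 stayed called in both treated groups whichever 1 library was left out. Leaving out 1 library, calls over all genes ran from 6850 to 7295 (vehicle against WT), 547 to 1223 (Scl-Ab against vehicle) and 6382 to 7674 (Scl-Ab against WT), members from 5 to 6, 1 to 2 and 4 to 6, related genes from 32 to 35, 4 to 8 and 36 to 41, and called ratios from 3 to 4. In vehicle against WT, members called were 2 with the contractile index and 3 with the clock index, against 6 in the main fit. Calls over all genes also fell there, to 5921 and 5576, against 7255 in the main fit. In Scl-Ab against vehicle, members called were 0 with equal totals, with the 2 groups alone, in the Wilcoxon test and with the clock index, and 2 with the heart index. There, calls over all genes were 447 with no filter, 369 with equal totals (65% of them higher, against 35.4% in the main fit), 309 with the 2 groups alone, 412 in the Wilcoxon test, 3 with the clock index, 1974 with the heart index and 611 with GC and length trends removed. Related genes called there were 3 with no filter, with the 2 groups alone and in the Wilcoxon test, 8 with the contractile index, 0 with the clock index, 9 with the heart index and 10 without vehicle replicate 1 and Scl-Ab replicate 17. With the trends removed, 9 members were called in vehicle against WT, where 7403 of all genes were, and 8 in Scl-Ab against WT, where 7241 were. In the latter comparison the contractile index gave 4521 genes and 23 related genes. The cause was not tested in any of these. Signs turned as follows, as log2 fold changes. With the contractile index in vehicle against WT, Kcnma1 was 0.20, Kcnmb1 0.39 (limma adjusted p = 7.82e-05), Cacna1c 0.10 and Itpr1 0.00; in Scl-Ab against WT, Kcnma1 was 0.25, Kcnmb1 0.28 (limma adjusted p = 0.00695), Cacna1c 0.20, Kcna5 -0.53 and Trpc1 0.01; in Scl-Ab against vehicle, Kcnma1 was 0.05 and Trpc1 0.01. Also in Scl-Ab against vehicle, the clock index gave Cacna1h -0.07 and Kcnj8 -0.16, and leaving out both libraries gave Kcnma1 0.07, Cacna1c -0.10 and Cacna1h -0.01, although Cacna1h stayed above 0 with any 1 library left out (0.04 to 0.18). Trpc1 there was 0.01 with TMM scaling, 0.02 with equal totals, 0.00 with the fat index, 0.04 with the heart index and 0.05 with trends removed. With 1 library left out, Cacna1c ran from -0.05 to 0.06, Kcnma1 from -0.12 to 0.05, Trpc1 from -0.03 to 0.02 and the Trpc6 to Trpc1 ratio from -0.03 to 0.06 in Scl-Ab against vehicle, and the Abcc9 to Kcnj8 ratio from -0.12 to 0.01 in Scl-Ab against WT.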

Other observations

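Of the 74 related genes, 24 did not pass the filter on low values and are given as mean levels only. Cacna1i, a T-type pore, averaged 0.00411 in WT, and Kcna4, a Kv pore, 0.00753. Trpc5 was listed at 0 in every WT library. Trpc4, a relative of Trpc6, averaged 0.0348 in WT and 0.210 in Scl-Ab. Kcna2, a Kv pore, averaged 0.963 in WT, 0.676 in vehicle and 0.847 in Scl-Ab. Abcc8, the other sulphonylurea receptor, averaged 0.0955 in WT, against 58.6 for Abcc9.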
